A study of Mus musculus with 10 samples.

Results

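The Rab GTPases are the largest branch of the Ras superfamily. Each one marks particular membranes of the cell and, when bound to GTP, recruits the proteins that bud, move, tether and fuse vesicles there. Exchange factors load them with GTP, GTPase-activating proteins switch them off, prenyl groups anchor them in the membrane, and escort proteins carry the inactive form through the cytosol. Hepatic stellate cells (HSCs) are the pericytes of the liver sinusoid and store vitamin A in lipid droplets. In macrophages, whose marker genes are also described below, Rab GTPases drive the maturation of phagosomes into lysosomes.

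The family was taken as all genes of the deposited table whose symbol is Rab followed by a number and at most a letter and a digit, which gave 59 genes of the 25233 with a symbol. Their RNA was measured by bulk RNA sequencing of sorted liver cells from C57BL/6J mice, male according to the methods of the study. The hypHSCs, hypertrophied HSCs, came from mice fed a CDAHFD, which is high in fat, lacks choline, is low in methionine and leads to steatohepatitis and fibrosis. The mice of libraries hypHSC 1 and 2 were 19 weeks old and had been on the diet for 13 weeks, and those of hypHSC 3, 4 and 5 were 18 weeks old, with 12 weeks on the diet. The qHSCs, quiescent HSCs, came from mice on a standard diet (SD), aged 36 weeks for qHSC 1, 2 and 5 and 34 weeks for qHSC 3 and 4. Diet, age, liver digestion and the fluorescence used for the sort changed together between the groups, so their effects cannot be told apart. The labels name no mouse behind each library and the samples were chosen from a larger set for their RNA quality, so p-values measure the spread between preparations, some of which may share a mouse. In bulk RNA, fewer cells of a type and less RNA per cell cannot be told apart.

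The libraries held 30534719 to 43283589 reads on genes with a symbol in hypHSCs and 35640104 to 47317028 in qHSCs. The Rab genes took 0.421% to 0.513% of these in hypHSCs and 0.466% to 0.518% in qHSCs. The marker genes of the sorted cells differed widely. All 12 genes of a list for quiescent HSCs, such as *Lrat*, which esterifies retinol, were lower in hypHSCs, with a summed level of 23472 to 52662 normalized counts against 772710.1 to 1122377. All 14 genes of a list for macrophages, such as *Adgre1*, the gene of F4/80, were higher, with 1112491 to 1599267 against 6993 to 128783, and the highest qHSC sums were those of qHSC 4 (128783) and qHSC 1 (56374). No gene of either list was without reads in a group. The hypHSC libraries therefore carried a macrophage transcript load that their label does not name. Of 6 genes for Kupffer cells, the resident macrophages of the liver, 3 were higher and 3 were not called. Their sums were 17676 to 32546 in hypHSCs and 1141 to 44992 in qHSCs. Library qHSC 4 (44992) lay above every hypHSC library, and qHSC 1 (19236) lay within the hypHSC range. All 4 tested genes of 5 for neutrophils and both tested genes of 3 for cholangiocytes were higher, with hypHSC sums of 1853 to 7942 and 115 to 1467. None of the 7 for hepatocytes and neither of the 2 tested of 6 for T, NK and B cells was called. Of the 6 tested of 7 for sinusoidal endothelium, 2 were higher and 1 was lower. Each comparison of the 2 groups below is also a comparison of libraries that differ in these lists, and their part in it was not tested. Mitochondrial genes took 2.21% to 12.8% of the reads on all entries in hypHSCs, most in hypHSC 1 (12.8%) and hypHSC 2 (7.27%), and 1.25% to 1.61% in qHSCs. Entries without a symbol took 10.8% to 29.1% and 8.98% to 10.2%. The part of these shares in the differences was not tested. Libraries hypHSC 4 and 5 stood apart from the other hypHSCs at several Rab genes. Without them, 6 members were called higher and 15 lower, with 4 calls added and 2 lost, and the members concerned are given with both values.

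Levels are normalized counts, which are reads divided by the size factor of the library, and values are listed in the order of libraries 1 to 5. A gene was tested when 5 or more of the 10 libraries held at least 10 normalized counts of it. It was called when the absolute log2 fold change in limma, on log2(normalized count + 1), was at least 1 and the adjusted p at most 0.05. A fold change is thus a difference of mean logs, in which the added 1 shrinks the change of a low gene and single libraries at or near 0 enlarge it. At 11 of the 19 called members it was more than 0.1 further from 0 than the log2 ratio of the group means, and at *Rab39b* it was nearer to 0 by more than that. Of the 59 Rab genes, 53 were tested and 19 (35.8%) were called, beside 39.5% of all 14630 genes tested. The calls were 5 higher (9.43%) and 14 lower (26.4%) in hypHSCs, beside 17.8% and 21.7% of all genes. The groups did not overlap at 18 of the 19 called members, which is 34.0% of those tested, beside 33% of all genes. Each gene was also put to an exact two-sided permutation test over all arrangements of the libraries into groups of 5. In this exact permutation test, these 18 members had p = 0.00794, the smallest that the test can give. Groups without overlap always have that value, so for these members the test adds nothing to the lack of overlap. *Rab12*, *Rab18* and *Rab31*, without overlap but not called, had the same value. The remaining called member, *Rab27a*, had p = 0.0159 in the exact permutation test. The median log2 fold change was -0.23 over the 53 members and -0.20 over all genes. The family as a whole was thus called about as often as other genes, while single members spanned -6.81 to 6.93. The split of calls depended on the scaling, with 3 higher and 17 lower on equal totals and 8 and 14 on equal upper quartiles. On the reference genes *Hprt*, *Pgk1* and *Actb* it was 3 and 24. DESeq2 and edgeR on the recovered reads each gave 9 and 14. The members they added were *Rab11a*, *Rab24* and *Rab5a* with both, *Rab40c* with DESeq2 and *Rab21* with edgeR.

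**Figure D1:**
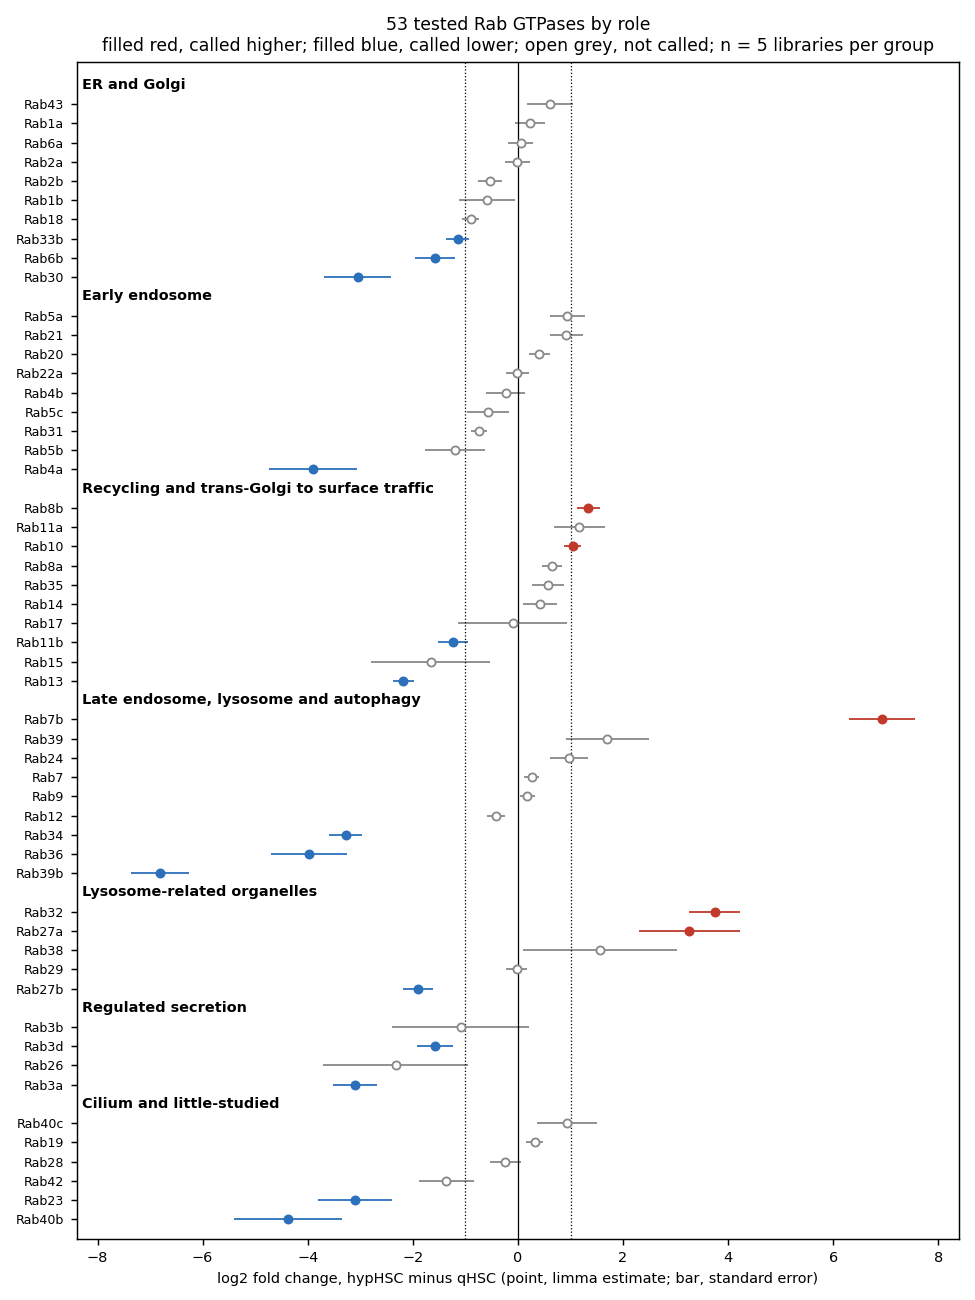
Fold changes of the 53 tested Rab GTPases on the log2 scale, hypHSC minus qHSC, with standard errors, grouped by the compartment each is best known for; dotted lines mark the fold threshold of 1. Rab7b (6.93) and Rab39b (-6.81) lie at the ends, both among the genes of the late endosome and lysosome.

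The promoters of 3 members that rose, *Rab32*, *Rab8b* and *Rab10*, and of *Rab39b*, which fell to the floor of detection, are printed to show how unlike they are in sequence. Each is the stretch of 250 bases before the annotated start on the GRCm39 genome, 5′ to 3′ on the strand of the gene, with the CpG dinucleotides in capitals. They lie at chr10:10434010-10434259 (minus strand), chr9:66826982-66827231 (minus), chr12:3360009-3360258 (minus) and chrX:74621854-74622103 (minus).
Rab32: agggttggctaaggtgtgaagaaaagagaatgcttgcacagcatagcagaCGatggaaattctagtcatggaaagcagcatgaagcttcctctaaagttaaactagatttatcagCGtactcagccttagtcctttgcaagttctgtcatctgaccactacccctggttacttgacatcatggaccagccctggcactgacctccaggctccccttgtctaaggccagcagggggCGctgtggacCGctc
Rab8b: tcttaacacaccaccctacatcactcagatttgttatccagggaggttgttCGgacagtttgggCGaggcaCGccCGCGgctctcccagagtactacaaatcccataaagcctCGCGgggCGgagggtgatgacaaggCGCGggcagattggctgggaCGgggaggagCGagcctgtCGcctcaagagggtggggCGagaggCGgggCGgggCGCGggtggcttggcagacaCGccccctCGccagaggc
Rab10: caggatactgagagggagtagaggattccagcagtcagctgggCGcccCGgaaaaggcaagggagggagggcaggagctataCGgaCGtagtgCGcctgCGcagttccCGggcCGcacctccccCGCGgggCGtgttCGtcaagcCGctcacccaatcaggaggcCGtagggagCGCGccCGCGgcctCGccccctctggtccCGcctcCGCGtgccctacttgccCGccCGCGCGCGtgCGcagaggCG
Rab39b: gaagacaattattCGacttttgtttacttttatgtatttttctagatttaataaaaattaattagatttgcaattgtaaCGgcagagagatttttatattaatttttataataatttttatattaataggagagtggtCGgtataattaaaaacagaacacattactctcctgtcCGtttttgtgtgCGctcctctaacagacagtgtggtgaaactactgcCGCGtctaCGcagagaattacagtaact

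The *Rab32* stretch held 4 CpG, whereas those of *Rab8b* and *Rab10* held 20 and 29, so CpG content differed widely among these members that rose. The *Rab39b* stretch had the lowest GC content of the family, 30.8%. The median over the family was 57.2% GC and 10 CpG, beside 54.4% and 9 over the 18958 protein-coding genes with a promoter. The 14 members that fell held 2 to 23 CpG. Letter searches on both strands found the E-box CACGTG in 3 of the 59 promoters (5.08%, beside 6.70% of all), the PU.1 core GAGGAAGT in 1 (1.69%, beside 2.08%), the cyclic AMP response element TGACGTCA in 1 (1.69%, beside 1.81%) and TATAAA in 5 (8.47%, beside 10.5%). The TATAAA letters occurred 3 times before *Rab39b*, each on the strand opposite the gene, where the printed stretch reads TTTATA. None of the 4 motifs was found before *Rab32*, *Rab8b* or *Rab10*.

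The late endosomal and lysosomal members held the largest changes in both directions. Of 9 tested, 1 rose and 3 fell, beside 17.8% called higher and 21.7% called lower of all genes. Counts of so few genes, here and in the roles below, were not tested against these shares. *Rab7b* (chromosome 1, 131616433 to 131643177, plus strand, GRCm39) acts between late endosomes and the trans-Golgi network and is known to lower toll-like receptor signalling in macrophages. It had 25227, 31091, 25506, 24148 and 24162 normalized counts in hypHSCs and 285, 34.1, 602, 450.1 and 159.6 in qHSCs. The groups did not overlap, and every hypHSC library stood far above every qHSC library. Its mean was 85-fold higher (log2 fold change 6.93, SE 0.63, adjusted p = 6.96e-06), and it was called with each library left out in turn, with log2 fold changes of 6.28 to 7.30.

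*Rab7*, the paralogue that all cells use for fusion of late endosomes with lysosomes, was not called. Its levels were 9857, 11384, 10397, 13177 and 11076 in hypHSCs and 9081, 9292, 7656, 9354 and 11310.5 in qHSCs, and the ranges overlapped (log2 fold change 0.26, SE 0.15, adjusted p = 0.175). Per length, *Rab7b* reached 127 ± 22.1 FPKM (mean ± SD, n = 5) in hypHSCs and 1.94 ± 1.49 in qHSCs, beside 42.1 ± 4.58 and 44.7 ± 3.91 for *Rab7*. *Rab7b* thus made up 76.7, 77.8, 75.9, 70.2 and 73.7 percent of the summed FPKM of the pair in hypHSCs, and 3.88, 0.469, 9.16, 5.82 and 1.78 percent in qHSCs. The minor gene of the pair in qHSCs was the major one in every hypHSC library. About 3.7% of the 59-base stretches of *Rab7* also occur in genes elsewhere in the genome, mainly a pseudogene of its own.

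The other changes among these genes were falls. *Rab39b* (chromosome X, 74615651 to 74621837, minus strand), a gene known from neurons and from X-linked intellectual disability, had 141, 123, 89, 175 and 224 normalized counts in qHSCs. In hypHSCs it was at 0, 0, 2.49, 0 and 0, and no library held more than 3 reads, the floor of detection used here. Against that floor it was at least 43.4-fold lower, and the call held in limma (adjusted p = 3.56e-06). Its relative *Rab39*, which acts on phagosomes of macrophages, had 108, 52.8, 254, 308 and 147 in hypHSCs and 65.2, 31.5, 40.9, 222 and 8.24 in qHSCs and was not called (log2 fold change 1.70, SE 0.79, adjusted p = 0.0944). Without qHSC 4, the qHSC library with the most *Rab39*, it was called at 2.28. Of the summed FPKM of the pair, *Rab39* held 99.1% to 100% in hypHSCs and 3.90% to 58.3% in qHSCs.

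*Rab34*, which acts in lysosome positioning, macropinocytosis and the primary cilium, fell from 1475, 2603, 1975, 1719 and 2872 in qHSCs to 309, 157, 170.5, 135 and 384 in hypHSCs. The groups were far apart and the mean was 9.21-fold lower (log2 fold change -3.28, SE 0.32, adjusted p = 1.31e-05). A noncoding gene on the other strand covers 28.4% of its exon bases, and counting without strand cannot separate them. *Rab36*, its closest relative, fell in the same direction, from 291, 441, 346, 177 and 287 in qHSCs to 28.3, 19.7, 40.8, 36.7 and 1.51 in hypHSCs (log2 fold change -3.97, SE 0.72, adjusted p = 0.000871). Both are known to bind the lysosomal adaptor RILP. *Rab12*, *Rab24* and *Rab9*, which act in receptor degradation, autophagy and return from endosomes to the Golgi, had log2 fold changes of -0.42, 0.97 and 0.18 and were not called. *Rab24* passed the adjusted p (0.0449) but not the fold, and its high levels were those of hypHSC 4 and 5 (639, 489, 783, 1312 and 2199 in hypHSCs and 533, 503, 524, 414 and 414 in qHSCs), without which it was at 0.40. It shares 37.5% of its exon bases with *Prelid1* on the other strand. *Rab9b* had no read in any library.

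**Figure D2:**
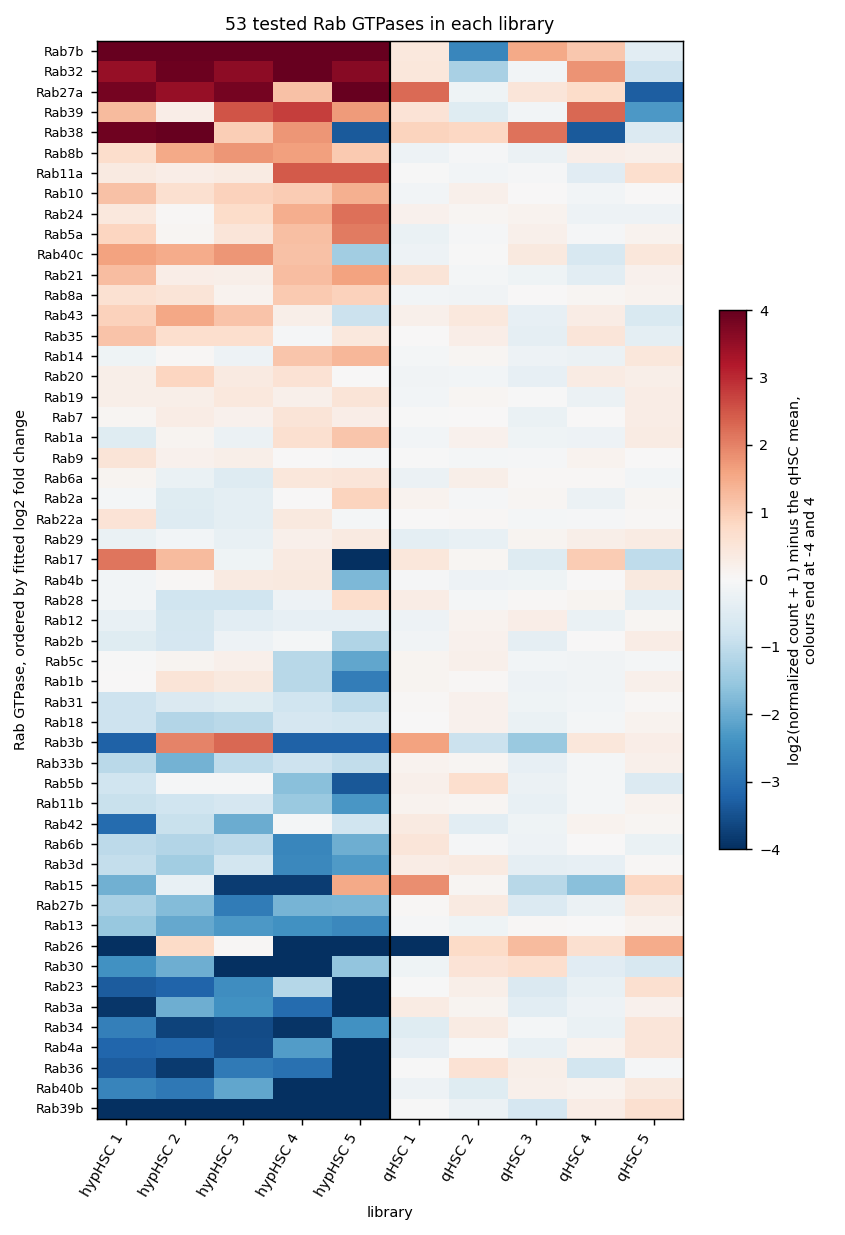
Level of each of the 53 tested Rab GTPases in each library, as log2(normalized count + 1) minus the mean of the 5 qHSC libraries, ordered by fold change. Rab7b and Rab32 are high in all 5 hypHSCs and Rab39b is low in all 5, while members such as Rab11a and Rab1b differ mainly in hypHSC 4 and 5.

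Rab GTPases of lysosome-related organelles, such as melanosomes and lytic granules, rose in 2 of 5 cases and fell in 1. Of all genes, 17.8% were called higher and 21.7% lower. *Rab32* (chromosome 10, 10420755 to 10433978, minus strand) delivers cargo to melanosomes and, in macrophages, to vacuoles that hold bacteria. It had 9499.9, 12882, 10120.4, 14144 and 10619 normalized counts in hypHSCs and 1159, 343, 780.2, 2929.9 and 469.8 in qHSCs. The lowest hypHSC library was above the highest qHSC library, and the mean was 10.1-fold higher (log2 fold change 3.74, SE 0.48, adjusted p = 8.21e-05). Within qHSCs it was highest in qHSC 4 and qHSC 1, the libraries with the highest macrophage sums. These sums were 56374, 6993, 12757, 128783 and 10949 in qHSC 1 to 5. *Rab7b*, at 285, 34.1, 602, 450.1 and 159.6, was highest in qHSC 3 and followed the order of the sums in the other qHSC libraries. The part of macrophage transcripts in either gene was not tested. The *Rab32* relative *Rab38*, known from pigment cells and lung, was low, with 151, 231, 19.1, 33.6 and 0 in hypHSCs and 18.1, 17, 44.9, 0 and 5.99 in qHSCs, and was not called (log2 fold change 1.56, SE 1.47, adjusted p = 0.407).

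The Rab27 pair, which docks secretory granules and exosomes at the plasma membrane, moved in opposite directions. *Rab27a* had 139, 109, 137, 21 and 159 in hypHSCs and 46.2, 7.67, 12.6, 15.4 and 0 in qHSCs. It was called higher (log2 fold change 3.26, SE 0.96, adjusted p = 0.0159) although hypHSC 4 lay within the qHSC range, and it was not called among the hypHSCs at 12 weeks alone (3.0). *Rab27b* had 747, 544, 259, 506 and 511 in hypHSCs and 1883, 2343, 1250.2, 1545 and 2352 in qHSCs, without overlap (log2 fold change -1.90, SE 0.29, adjusted p = 0.000271). *Rab27a* held 31.9, 33.5, 57.2, 9.45 and 43.9 percent of the summed FPKM of the pair in hypHSCs and 5.81, 0.816, 2.47, 2.45 and 0 percent in qHSCs. *Rab27a* was the larger part of the pair in hypHSC 3 only. *Rab29*, a partner of the kinase LRRK2 and the most abundant of these genes in qHSCs, was not called (log2 fold change -0.02, SE 0.20, adjusted p = 0.937).

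Regulated secretion, the calcium-triggered release of stored vesicles, is the work of the Rab3 genes and their kin. None of the 4 tested rose and 2 fell, beside 17.8% and 21.7% of all genes. *Rab3a*, best known from synaptic vesicles, had 60.6, 239, 170.5, 109 and 51.4 in hypHSCs and 1169, 999, 692, 796 and 1033 in qHSCs, a mean 7.43-fold lower without overlap (log2 fold change -3.10, SE 0.41, adjusted p = 0.000109). *Mpv17l2* on the other strand covers 18.0% of its exon bases and itself had a log2 fold change of 2.79, opposite to that of *Rab3a*. *Rab3d*, which marks the granules of exocrine and mast cells, fell from 2668, 2825, 1719, 1728 and 2253 in qHSCs to 1128, 839.6, 1321, 364 and 454 in hypHSCs (log2 fold change -1.58, SE 0.35, adjusted p = 0.00351), and without hypHSC 4 and 5 its log2 fold change was -1.02. The remaining genes were low. *Rab3b* reached at most 45.7 and *Rab26* at most 48.7 normalized counts, *Rab37* was too low to be tested (at most 17.6 in hypHSCs and 87.8 in qHSCs), and *Rab3c* had no read in any library. Together these genes took 0.242% to 0.871% of the summed Rab FPKM in hypHSCs and 1.97% to 2.94% in qHSCs.

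In the group of recycling and of traffic from the trans-Golgi network to the surface, 10 of 11 members were tested. Of these, 2 rose and 2 fell, beside 17.8% and 21.7% of all genes. *Rab8a*, which carries cargo to the plasma membrane and the cilium, was the most abundant of them in both groups, at 91.1 ± 14.2 FPKM in hypHSCs and 74.1 ± 5.58 in qHSCs. Its normalized counts were 23959, 22590.2, 17502, 32970.1 and 29882 in hypHSCs and 14861, 14381, 16085, 16620.01 and 17608 in qHSCs, and it passed the adjusted p but not the fold (log2 fold change 0.64, SE 0.19, adjusted p = 0.0163). Its paralogue *Rab8b* had 6042, 10664, 12555, 11606 and 7575 in hypHSCs and 3241, 3570.1, 3135, 4448 and 4266 in qHSCs, with every hypHSC library above the qHSCs (log2 fold change 1.34, SE 0.22, adjusted p = 0.000491). *Rab10*, which moves the glucose transporter GLUT4 and toll-like receptor 4 to the surface, had 5994, 4178, 5057, 5402 and 7145 in hypHSCs and 2465, 3033, 2666, 2470.4 and 2691 in qHSCs (log2 fold change 1.04, SE 0.16, adjusted p = 0.00035). The groups did not overlap, but its fold lay at the threshold. Without hypHSC 5 it was 0.94 and without hypHSC 4 and 5 it was 0.92, and not called, and the antisense gene *Rab10os* covers 21.5% of its exon bases. On equal totals, neither *Rab8b* (0.98) nor *Rab10* (0.69) was called. On the reference genes *Hprt*, *Pgk1* and *Actb* they were at 0.40 and 0.10, and again not called.

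*Rab13*, which serves tight junctions and cell migration, showed the firmest fall of this group, from 4243, 3922, 4540.4, 4403 and 4847 in qHSCs to 1536, 1062, 883, 813 and 728 in hypHSCs (log2 fold change -2.18, SE 0.20, adjusted p = 8.59e-06). Its level per length went from 55.9 ± 4.36 to 10.1 ± 3.57 FPKM. *Rab11b*, a gene of the recycling endosome, had 6907, 7399, 8064, 4629.7 and 2556 in hypHSCs and 14117, 13651, 10586, 12269.7 and 14206 in qHSCs, and was called lower (log2 fold change -1.24, SE 0.29, adjusted p = 0.00473). Its lowest values were those of hypHSC 4 and 5, and the log2 fold change was -0.96 without hypHSC 5 and -0.79 without both, and not called. About 14.3% of its 59-base stretches occur in genes elsewhere, the largest share in the family. Its paralogue *Rab11a* had 3854, 3589, 3697, 16225 and 16187 in hypHSCs and 2931, 2728, 2852, 2163 and 4700.3 in qHSCs and was not called (log2 fold change 1.17, SE 0.48, adjusted p = 0.0639). The high values were again those of hypHSC 4 and 5, without which it was at 0.32, and DESeq2 (1.5) and edgeR (1.60) called it with all libraries. *Rab11a* held 25.8, 26, 24.6, 71.1 and 82.5 percent of the summed FPKM of *Rab11a*, *Rab11b* and *Rab25* in hypHSCs, and 13.4, 13, 16.7, 11.6 and 19.8 percent in qHSCs.

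*Rab25*, the epithelial member of the Rab11 genes, was too sparse to be tested, with 350.4, 58, 102, 75.5 and 0 normalized counts in hypHSCs and no read in any qHSC library. Against the floor of 3 reads per library it was at least 47.1-fold higher in hypHSCs, and at least 23.7-fold without hypHSC 1, while hypHSC 5 had no read. With no filter on low values limma called it (adjusted p = 0.00545). The summed cholangiocyte markers, epithelial as well, were at 1467, 271, 289, 115 and 259 in hypHSC 1 to 5. They were highest in hypHSC 1, the library with the most *Rab25*. Library hypHSC 5, without a *Rab25* read, had a sum close to those of hypHSC 2 and 3. The part of these markers in *Rab25* was not tested. *Rab14*, which acts between Golgi and endosomes, had 13226, 15408, 12824, 32284 and 37222 in hypHSCs and 14106, 15717, 12837, 12648 and 20529 in qHSCs, and hypHSC 4 and 5 were again the high libraries (log2 fold change 0.42, SE 0.32, adjusted p = 0.311). *Rab35* was not called (0.57), and neither were the low genes *Rab15* (-1.66) and *Rab17* (-0.10), both at most 75.5 normalized counts.

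**Figure D3:**
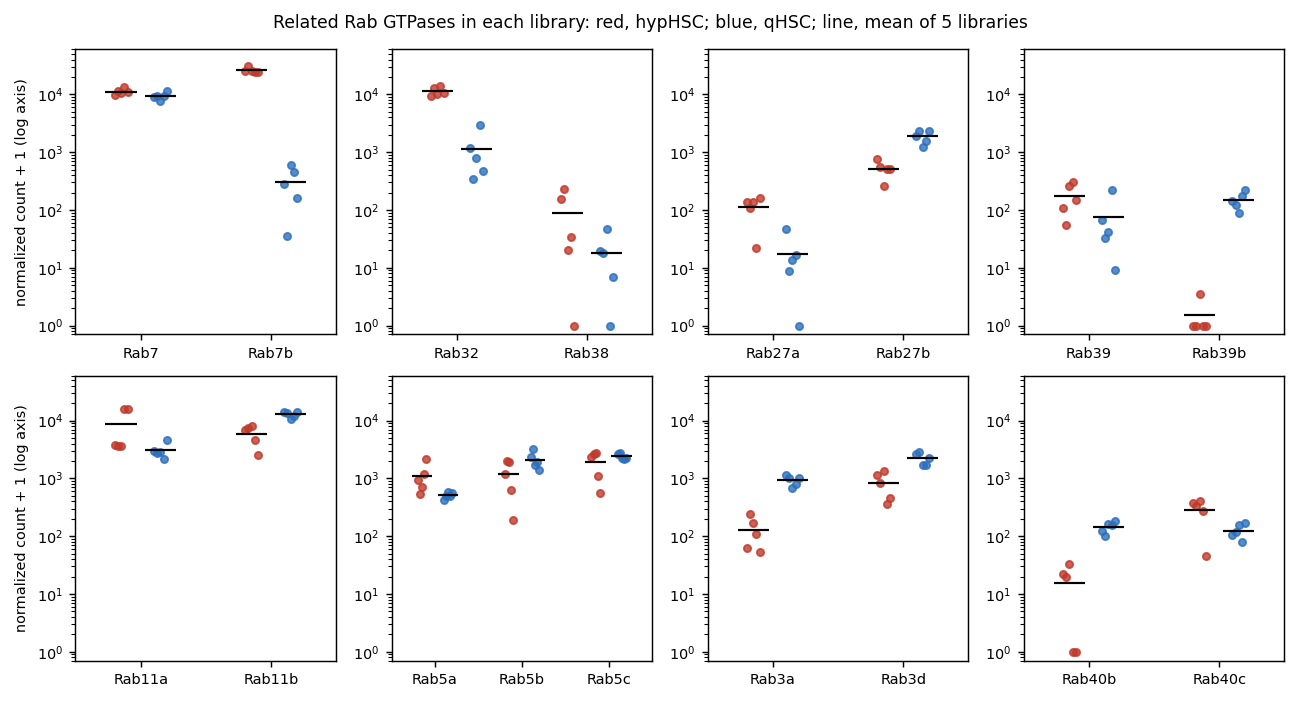
Normalized counts + 1 on a log axis for related Rab GTPases in each library, with the mean of 5 libraries as a line. Rab7b, Rab32 and Rab27a are higher in hypHSCs, their relatives Rab7 and Rab38 overlap between groups, and Rab27b, Rab39b, Rab11b, Rab3a, Rab3d and Rab40b are lower.

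Beside 17.8% higher and 21.7% lower of all genes, none of the 9 early endosomal members, all tested, rose and 1 fell. That was *Rab4a*, which returns receptors to the surface by the fast route, with 17.5, 18.6, 13.3, 34.6 and 0 in hypHSCs and 134, 165, 137, 183 and 237 in qHSCs (log2 fold change -3.90, SE 0.84, adjusted p = 0.00273). Its much more abundant paralogue *Rab4b* had 1479.6, 1658, 2045, 2095 and 466 in hypHSCs and 1562, 1404, 1441, 1640.3 and 2089 in qHSCs and was not called (log2 fold change -0.23, SE 0.37, adjusted p = 0.635). A readthrough gene, *Gm21983*, shares 64.1% of the exon bases of *Rab4b*, so its reads could be split. *Rab4b* held 99.4% to 100% of the summed FPKM of the pair in hypHSCs and 96.1% to 97.1% in qHSCs.

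The Rab5 genes, which control fusion of early endosomes, were not called in the main fit. *Rab5a* had 922, 535, 710.2, 1173 and 2154 in hypHSCs and 428, 494, 589.7, 490.3 and 563 in qHSCs and passed the adjusted p only (log2 fold change 0.94, SE 0.33, adjusted p = 0.035). DESeq2 (1.10) and edgeR (1.18) called it, as did limma with the hypHSCs at 12 weeks alone (1.25). Without hypHSC 4 and 5 it was at 0.47. *Pp2d1* on its other strand covers 16.4% of its exon bases and had a log2 fold change of 1.28, and 8.85% of its stretches occur elsewhere. *Rab5b* and *Rab5c* had log2 fold changes of -1.2 (adjusted p = 0.106 in limma) and -0.57 (adjusted p = 0.256). Both were lowest in hypHSC 4 and 5, without which they were at -0.30 and 0.11. *Rab21*, which moves integrins, was at 0.92 (adjusted p = 0.0315) and *Rab22a* at -0.01. *Rab31*, which sorts receptors between Golgi and endosomes, was the most abundant of the group in qHSCs. It had 6546, 7898, 8301, 6808 and 5862 in hypHSCs and 12209.6, 13215, 10414, 10847 and 12163 in qHSCs, without overlap but under the fold threshold (log2 fold change -0.74, SE 0.15, adjusted p = 0.00184). *Rab20*, which acts on phagosomes of macrophages, was the most abundant in hypHSCs at 42.6 ± 11.2 FPKM against 40.3 ± 6.79 in qHSCs, with counts of 3677, 5674, 3988, 4674 and 3182 in hypHSCs and 2827, 2883, 2514, 3948 and 3689 in qHSCs that overlapped (log2 fold change 0.41, SE 0.20, adjusted p = 0.106).

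Of the 10 tested genes of the endoplasmic reticulum (ER) and Golgi, none rose and 3 fell, beside 17.8% and 21.7% of all genes. *Rab30*, which maintains Golgi structure, had 119.9, 168, 24.9, 25.2 and 219 in hypHSCs and 584, 951, 1048, 477 and 421 in qHSCs, a mean 6.25-fold lower (log2 fold change -3.05, SE 0.64, adjusted p = 0.00226). *Rab6b*, the form of Rab6 known mainly from brain, had 88.9, 81.8, 89, 29.4 and 46.9 in hypHSCs and 262, 179.8, 159, 187 and 154 in qHSCs (log2 fold change -1.57, SE 0.38, adjusted p = 0.00586). The general form *Rab6a*, with 586, 457, 383, 754 and 764 in hypHSCs and 468, 644, 566, 572 and 510.3 in qHSCs, was not called (log2 fold change 0.05, SE 0.23, adjusted p = 0.877). *Rab33b*, a Golgi gene that binds the autophagy factor ATG16L1, had 716, 407, 747, 843 and 750.2 in hypHSCs and 1656, 1575, 1205, 1406 and 1707 in qHSCs (log2 fold change -1.15, SE 0.22, adjusted p = 0.0012). Without hypHSC 2, its lowest library, the value was -0.97 and not called. With the hypHSCs at 12 weeks alone it was -0.94, and again not called. *Rab33a* stayed at or under 22 normalized counts and was not tested.

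The abundant genes of this group were not called. *Rab18*, which works on lipid droplets and the ER and was the most abundant Rab gene of qHSCs, had 15386, 12145, 12856, 16924 and 16344 in hypHSCs and 27339, 30643, 22655, 25939 and 30145 in qHSCs. The groups did not overlap, but the change stayed under the fold threshold (log2 fold change -0.90, SE 0.16, adjusted p = 0.000993). Its call depended on the scaling and the libraries. It was called lower on equal totals (-1.25, adjusted p = 2.28e-05 in limma), on the reference genes (-1.84) and without hypHSC 4 and 5 (-1.02, adjusted p = 0.000361). *Rab1a*, which brings vesicles from the ER to the Golgi, was the most abundant of the group in hypHSCs, with 8384, 12695, 9951, 18039 and 25481 in hypHSCs and 10746, 13243, 10425, 10063 and 14621 in qHSCs (log2 fold change 0.23, SE 0.29, adjusted p = 0.531). *Cep68* on its other strand shares 34.4% of its exon bases. *Rab1b*, *Rab2a* and *Rab2b* had log2 fold changes of -0.59, -0.01 and -0.53 and were not called. *Rab43* (0.61) was not called either, except without hypHSC 4 and 5 (1.21), and shares 71.1% of its exon bases with the overlapping gene *Gm45140*.

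The last group joins genes of the cilium and little-studied ones. Of 6 tested, 2 fell, beside 21.7% of all genes. *Rab23*, an inhibitor of hedgehog signalling, had 9.43, 10.3, 17.5, 46.2 and 1.51 in hypHSCs and 101, 121, 69.3, 83.9 and 163 in qHSCs (log2 fold change -3.10, SE 0.70, adjusted p = 0.00359). *Rab40b*, which recruits a ubiquitin ligase, had 21.6, 18.6, 32.4, 0 and 0 in hypHSCs and 121, 99.7, 161, 154 and 183 in qHSCs (log2 fold change -4.37, SE 1.03, adjusted p = 0.00481), and the ratio of its means was 9.89-fold. Without hypHSC 4 and 5, which had no read, the log2 fold change was -2.53 and still called. Its relative *Rab40c* was above every qHSC library in 4 of the 5 hypHSC libraries without being called, with 369, 334, 407, 269.6 and 45.4 in hypHSCs and 103, 118, 158, 77 and 166 in qHSCs (log2 fold change 0.93, SE 0.57, adjusted p = 0.2), and was called without hypHSC 5 (1.5) and without hypHSC 4 and 5 (1.62). *Rab40c* held 91.4% to 100% of the summed FPKM of the pair in hypHSCs and 29.7% to 50% in qHSCs. *Rab19*, the most abundant of the group, was at 9.91 ± 1.39 FPKM in hypHSCs and 10.1 ± 1.13 in qHSCs, with counts of 974, 966, 1089, 936 and 1181 in hypHSCs and 756, 859, 805, 694 and 1017 in qHSCs (log2 fold change 0.32, SE 0.16, adjusted p = 0.124). *Rab28* (-0.24) and *Rab42* (-1.36, adjusted p = 0.0507 in limma) were not called, though *Rab42* was without hypHSC 4 and 5 (-1.98), and *Rab44* had no read in any library.

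Summed over all 59 genes, the Rab messengers amounted to 794 to 947 FPKM in hypHSCs and 856 to 937 in qHSCs, so the ranges overlapped while the make-up differed. By mean FPKM, *Rab7b* ranked 35th in qHSCs and first in hypHSCs. Its share of the sum was 15.6, 16.9, 15.2, 12.2 and 12.9 percent in hypHSCs and 0.201, 0.0228, 0.463, 0.317 and 0.0973 percent in qHSCs. In hypHSC 4, *Rab8a* held more than *Rab7b* (12.5%), as did *Rab1a* in hypHSC 5 (14.9%). *Rab32* rose from 1% ± 0.937 (SD, n = 5) to 7.96% ± 0.85 of the sum. In the other direction, *Rab18* went from 12.9% ± 0.792 to 5.62% ± 0.767, *Rab13* from 6.24% ± 0.646 to 1.17% ± 0.468 and *Rab11b* from 6.42% ± 0.484 to 2.42% ± 1.04. By role, the late endosomal and lysosomal genes took 19.5% to 23.2% of the sum in hypHSCs against 8.81% to 9.96% in qHSCs. Without *Rab7b*, the other genes of that role took 6.24% to 7.55% in hypHSCs against 8.61% to 9.86% in qHSCs. The ER and Golgi genes took 21.7% to 25.8% against 32.2% to 36.7%. The recycling and surface genes took 25.9% to 34.1% against 28.7% to 31.8%, which overlap. These shares are descriptions without a test. With the length of the longest transcript in place of all exon bases, the mean share of *Rab7b* in hypHSCs was 11.3% in place of 14.6%.

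**Figure D4:**
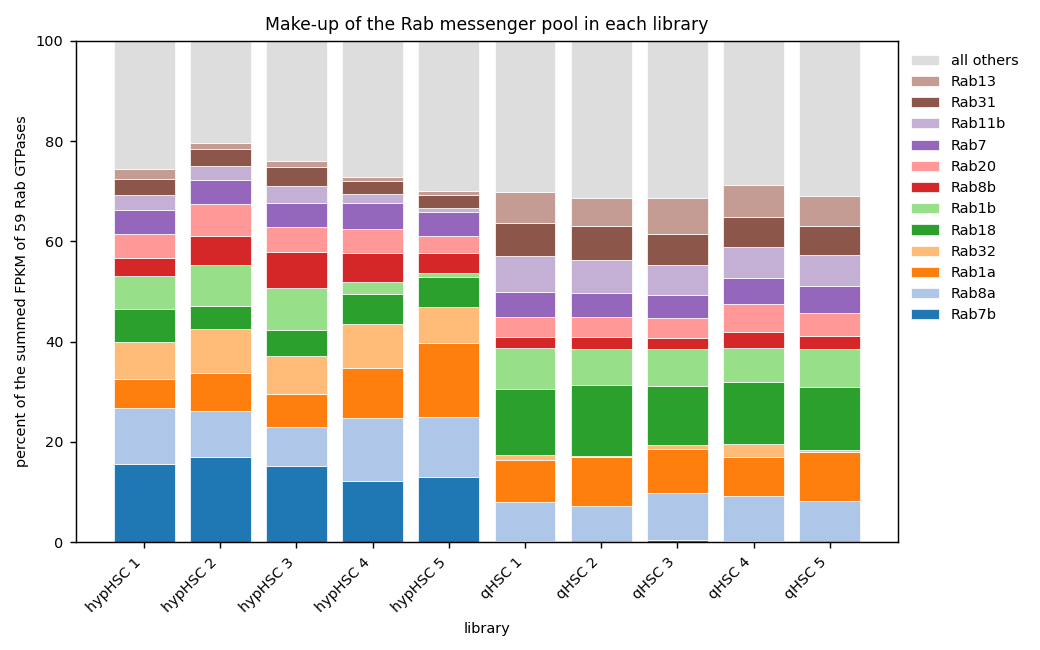
Percent of the summed FPKM of 59 Rab GTPases held by the most abundant members in each library. Rab7b and Rab32 together hold a visible part of every hypHSC bar and almost none of the qHSC bars, where Rab18, Rab11b, Rab13 and Rab31 are wider.

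The genes that act on or with Rab GTPases were counted in 4 lists. Of 120 tested of 134, 26 were called higher and 21 lower, together 39.2%, beside 39.5% of all genes. Their median log2 fold change was -0.12. Of the 8 genes of prenylation and escort, only *Rabac1*, which passes Rab GTPases from their escort to membranes, was called, and it fell (log2 fold change -1.59, SE 0.29, adjusted p = 0.00095).

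The exchange factors were called higher in 10 and lower in 5 of 33 cases, together 45.5%, beside 39.5% of all genes. *Rin2*, which activates Rab5, showed the largest rise that met the rule for naming, with 4436, 4856, 4593, 4205 and 2910.02 in hypHSCs and 572, 656, 404, 651 and 671 in qHSCs, without overlap (log2 fold change 2.83, SE 0.20, adjusted p = 1.22e-06). *Dennd4b*, an exchange factor for *Rab10*, rose by 2.73 and *Madd*, which activates Rab3 and Rab27 genes, by 2.41 on the log2 scale (adjusted p = 6.81e-05 and 0.00114 in limma). *Dennd2a* (-3.10) and *Dennd2d* (-2.60) fell, at adjusted p = 2.91e-05 and 0.00824. Among the called genes that *Madd* acts on, *Rab27a* rose and *Rab3a*, *Rab3d* and *Rab27b* fell.

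The GTPase-activating proteins were called higher in 7 and lower in 4 of 36 cases, together 30.6%, beside 39.5% of all genes. *Tbc1d9* rose most among those named by the rule, with 404, 408, 478, 198 and 119 in hypHSCs and 10.9, 11.1, 18.1, 61.6 and 14.2 in qHSCs (log2 fold change 3.90, SE 0.57, adjusted p = 0.000206), followed by *Tbc1d22a* (2.24) and *Tbc1d13* (1.75). The largest falls were those of *Tbc1d16* (-2.09), *Rabgap1l* (-1.78) and *Tbc1d2b* (-1.47).

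The effectors bind the GTP form and carry out its task. They were called higher in 9 and lower in 11 of 43 cases, together 46.5%, beside 39.5% of all genes. The rises were led by *Rilpl2*, which binds *Rab8a* and *Rab10*, with 4123, 4970.2, 5510.1, 7610.2 and 7939 in hypHSCs and 854, 818, 725, 672 and 811 in qHSCs (log2 fold change 2.92, SE 0.20, adjusted p = 9.21e-07). The lysosome adaptors *Plekhm2*, which links lysosomes to kinesin, and *Plekhm1*, which binds *Rab7* and promotes fusion with lysosomes, rose by 2.27 and 2.21 (adjusted p = 0.00119 and 0.000822 in limma). The falls were led by effectors of the Rab27 genes. *Mlph*, melanophilin, which ties *Rab27a* to myosin, had 106, 46.6, 31.6, 31.5 and 0 in hypHSCs and 1046, 832, 1137, 909 and 1036 in qHSCs, a mean 23-fold lower (log2 fold change -5.47, SE 1.01, adjusted p = 0.00102). *Sytl4*, granuphilin, had 44.5, 16.6, 21.6, 0 and 0 in hypHSCs and 135, 255, 194, 166 and 218 in qHSCs, a mean 11.7-fold lower (log2 fold change -4.74, SE 1.06, adjusted p = 0.00345). The direction of both was that of *Rab27b* and not that of *Rab27a*. Other Rab27 effectors of the list differed, as *Sytl2* (-2.52) was called lower and *Sytl1* (0.17) and *Unc13d* (3.22) were not called. *Lrrk2*, a kinase that phosphorylates *Rab8a* and *Rab10* and is recruited by *Rab29*, had a mean 7.95-fold lower in hypHSCs (log2 fold change -3.09, SE 0.33, adjusted p = 2.33e-05).

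**Figure D5:**
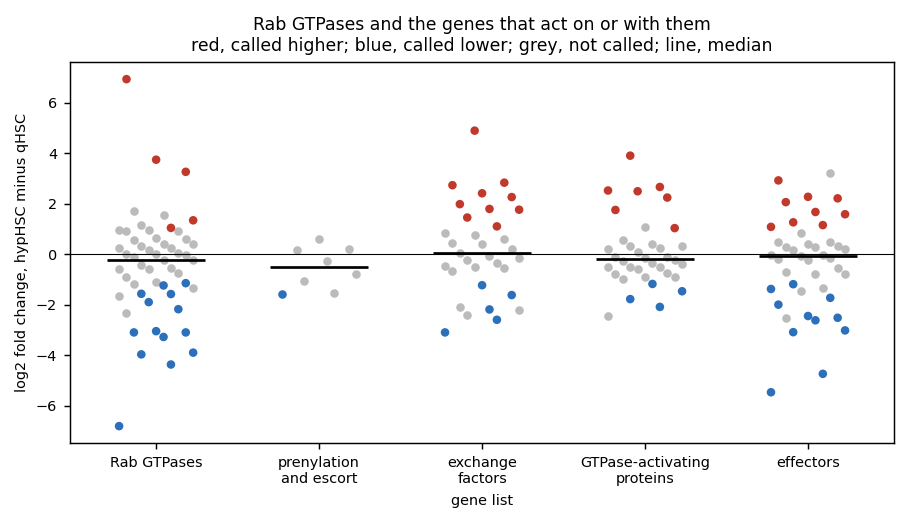
Log2 fold changes, hypHSC minus qHSC, of the tested Rab GTPases and of the 4 lists of genes that act on or with them, one point per gene and a line at each median. The medians lie between -0.51 and 0.03, and each list other than prenylation and escort holds called genes in both directions.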

How the data were processed

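The authors sequenced unstranded, poly(A)-primed libraries of 59-base read pairs, mapped them to mm39 (GRCm39) with STAR, counted reads per gene with featureCounts and divided them by DESeq2 size factors. The deposited signal is this normalized count, and multiplying each column by its factor returned whole reads for all values within 0.005. Genes with a symbol (25233 of 62322 entries) were used, and all 59 members were matched to the GENCODE annotation. Groups came from the labels, and no library was left out of the main fit.

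limma 3.58.1 (lmFit and eBayes with trend, R 4.3.3) compared 5 hypHSCs with 5 qHSCs on log2(normalized count + 1), with p-values of 14630 genes adjusted by Benjamini-Hochberg and thresholds of 1 (log2) and 0.05 (adjusted p). DESeq2 1.42.0 and edgeR 4.0.16 on the recovered reads were alternatives, beside other pseudocounts, filters, scalings and libraries. FPKM used the recovered reads and summed exon length. A count of 3 reads or fewer was the floor of detection, 2.49 to 4.54 normalized counts in hypHSCs and 2.25 to 2.72 in qHSCs, and covers counting error only. The steps were tested on simulated data. Every member may be named. Values per library are given for called members without overlap and at least 50 normalized counts in the higher group, their relatives, and the most abundant member of each role. From each list of regulators, up to 3 rises and 3 falls with a mean of at least 100 and no overlap are named. Members, lists and roles were chosen with earlier results of these data known.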

Additional observations from a re-analysis of the deposited data

Results flagged for a closer look

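In each group of 5 libraries, the highest and the lowest value of each tested Rab gene were compared with their neighbours, and a library was listed where its gap exceeded Dixon's 95% limit. Chance lists about 1 in 20 groups, and 9 of 106 groups were listed. *Rab4a* in hypHSC 5 had no read, beside 13.3 to 34.6 normalized counts in the other hypHSCs. *Rab36* was at 1.51 in hypHSC 5, beside 19.7 to 40.8. *Rab40c* was at 45.4 in hypHSC 5, beside 269.6 to 407.5, and *Rab4b* at 466, beside 1480 to 2095. These 4 of the 9 were all the lowest value and all in hypHSC 5. *Rab7b* was at 31091 in hypHSC 2, above the 24148 to 25506 of the others, and *Rab33b* at 407 in hypHSC 2, below 715.5 to 843. *Rab27a* was at 21 in hypHSC 4, below 109 to 158.8. *Rab39b* was at 2.49 in hypHSC 3, where the others had 0, a gap of at most 3 reads. *Rab26* in qHSC 1 was at 0, beside 26.5 to 48.7.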

How the results depend on the processing

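No called Rab gene changed sign under any of the 25 alternatives, and 12 of the 19 were called in each of them that tested them. The 5 higher calls became 3 on equal totals, 8 on equal upper quartiles, 3 on *Hprt*, *Pgk1* and *Actb*, 9 with DESeq2, 9 with edgeR, 2 with limma treat, 8 with hypHSCs at 12 weeks only, and 5 to 9 with each library left out in turn (9 without hypHSC 2 and 8 without hypHSC 3). The 14 lower calls became 24 on *Hprt*, *Pgk1* and *Actb* and stayed within 10 to 17 otherwise. Leaving out hypHSC 4 and 5 together, an alternative added after seeing the data, gave 6 higher and 15 lower, with *Rab10* (0.92) and *Rab11b* (-0.79) no longer called and *Rab18* (-1.02), *Rab42* (-1.98), *Rab43* (1.21) and *Rab40c* (1.62) added. The median of the members became -0.58 on equal totals and -1.17 on *Hprt*, *Pgk1* and *Actb*, where all genes shifted by -0.35 and -0.94. Other shifts of all genes over 0.1 were 0.12 on equal upper quartiles, 0.14 with edgeR, -0.11 at 12 weeks only and 0.12 without hypHSC 4 and 5. Calls among all genes went from 5779 to 3091 with limma treat and to 9291 with entries without a symbol included, and those among regulators and effectors from 47 to 16 with limma treat. The mean share of *Rab7b* in hypHSCs was 11.3% with the longest transcript. Depth limits the genes near 3 reads, such as *Rab39b* in hypHSCs.

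Signs changed only at members without a call in the main fit. On *Hprt*, *Pgk1* and *Actb* these were *Rab21* (-0.02), *Rab1a* (-0.71), *Rab40c* (-0.01), *Rab35* (-0.37), *Rab19* (-0.61), *Rab43* (-0.33), *Rab7* (-0.68), *Rab6a* (-0.89), *Rab8a* (-0.30), *Rab20* (-0.53), *Rab9* (-0.76) and *Rab14* (-0.52). On equal totals they were *Rab1a* (-0.12), *Rab19* (-0.03), *Rab7* (-0.09), *Rab6a* (-0.31) and *Rab9* (-0.17). On equal upper quartiles they were *Rab29* (0.10), *Rab22a* (0.12) and *Rab2a* (0.11), and with TMM factors *Rab29* (0.04), *Rab22a* (0.05) and *Rab2a* (0.04). With DESeq2 they were *Rab17* (0.72), *Rab22a* (0.05), *Rab2a* (0.07) and *Rab3b* (0.53), and with edgeR *Rab29* (0.03), *Rab17* (0.72), *Rab22a* (0.11), *Rab2a* (0.14) and *Rab3b* (0.59). With a pseudocount of 5 it was *Rab17* (0.19), and at 12 weeks only *Rab29* (0.08), *Rab2a* (0.17) and *Rab38* (-0.20). Without hypHSC 4 and 5 they were *Rab17* (1.08), *Rab1a* (-0.20), *Rab5c* (0.11), *Rab1b* (0.30), *Rab3b* (0.34), *Rab6a* (-0.23), *Rab4b* (0.09) and *Rab14* (-0.12). With single libraries left out, the log2 fold changes ranged from -0.12 to 0.06 for *Rab29*, -0.15 to 0.12 for *Rab22a*, -0.24 to 0.11 for *Rab2a*, -0.06 to 0.19 for *Rab6a*, -0.67 to 0.90 for *Rab17* and -0.38 to 0.16 for *Rab4b*. The cause of these changes was not tested. Single libraries also decided calls. Added were *Rab24* (1.11) and *Rab11a* (1.37) without hypHSC 1, *Rab21* (1.08), *Rab24* (1.21), *Rab5a* (1.15) and *Rab11a* (1.40) without hypHSC 2, *Rab21* (1.09), *Rab5a* (1.05) and *Rab11a* (1.39) without hypHSC 3, *Rab42* (-1.69) without hypHSC 4, *Rab42* (-1.51) and *Rab40c* (1.5) without hypHSC 5, *Rab21* (1.05) and *Rab26* (-3.36) without qHSC 1, and *Rab39* (2.28) without qHSC 4. Lost were *Rab33b* (-0.97) without hypHSC 2, and *Rab10* (0.94) and *Rab11b* (-0.96) without hypHSC 5.

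With the replicate number as a replicate block, 6 Rab genes were called higher and 15 lower, and all genes called came to 5786. Libraries of the same number deviated from their group means with correlations of 0.00815 to 0.129, and not every hypHSC library correlated best with the qHSC library of its own number, so the numbers were not taken to pair the samples.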

Other observations

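In hypHSC 4 and 5, the balance within the Rab1 and the Rab5 genes differed from that in hypHSC 1, 2 and 3, whereas *Rab8a*, at 75.4% of its pair with *Rab8b* in hypHSC 5, was at 75.5% in hypHSC 1. These values were singled out after they had been seen, and no test was run on them. *Rab1a* held 45.9, 47.6, 43.6, 79.7 and 94.6 percent of the summed FPKM of *Rab1a* and *Rab1b* in hypHSC 1 to 5, and 50.5% to 56.8% in qHSCs. *Rab1b* itself was at 6679.6, 9470.5, 8700.1, 3108 and 986 normalized counts, beside 7133, 6809, 5806, 5987 and 7728 in qHSCs. *Rab5a* held 16.3, 7.98, 10.1, 33.6 and 68.4 percent of the summed FPKM of the Rab5 genes in hypHSC 1 to 5, and 5.67% to 10.4% in qHSCs, while *Rab5b* was at 1169.6, 1975, 1943, 634 and 191 normalized counts and *Rab5c* at 2393, 2618, 2765, 1107 and 569. The summed FPKM of all Rab genes was 897 in hypHSC 4 and 794 in hypHSC 5, within the 794 to 947 of all hypHSCs.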
